A study of Mus musculus with 18 samples.

Results

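The expression of 10 inflammasome and NLR genes was followed in mouse liver after an injection of IL-1β. The genes are Nlrp3, Nlrp6, Nlrp12, Nlrc4, Aim2, Pycard, Casp1, Casp4, Il18 and Il18bp, taken by symbol, and all 10 of them are listed in each of the 3 gene count tables, which together list 21018 genes. The data are 18 RNA-Seq libraries from 6 male C57/B6J mice of 12 weeks, of which 3 received 20 µg/kg of IL-1β and 3 received saline, both by the intraperitoneal route, with livers taken 4 h later. RNA of each mouse entered 3 library kits. TruSeq is a stranded poly(A) kit that was given 200 ng of RNA, Pico is a stranded total RNA kit with enzymatic removal of ribosomal cDNA that was given 1.7 to 2.6 ng, and V4 is an unstranded poly(A) kit that was given 0.8 to 1.3 ng. Each group of a kit and a treatment thus holds 3 libraries, from mice named I9579, I9582 and I9583 for IL-1β and U9574, U9575 and U9576 for saline. No allele, transgene or cell sort is part of the design, so every value is an average over the cells of a whole liver sample.

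The 10 genes were selected on results of the IL-1β comparison in these same libraries, with the disagreement between kits in view. Their values are therefore a description, and no p is given for them.

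Inflammasomes are protein platforms that form in the cytosol when a sensor meets a microbial product or a sign of cell damage. The sensors Nlrp3, Nlrc4 and Aim2 recruit the protease caspase 1, often through the adaptor encoded by Pycard (ASC), and caspase 1 cuts the precursors of IL-1β and IL-18. Mouse Casp4 encodes caspase 11, which binds cytosolic lipopolysaccharide and starts a non-canonical pathway. Nlrp6 and Nlrp12 belong to the same family of NOD-like receptors, and both have been studied as modulators of NF-κB signalling as well as inflammasome sensors. In the liver, resident macrophages (Kupffer cells) are a main site of the canonical machinery, while hepatocytes make up most of the tissue mass.

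The deposited values are counts of whole reads per gene after resampling to an equal depth within each kit. A library summed to 12348864 to 12858237 counts in TruSeq, to 4024632 to 4134070 in Pico and to 12013453 to 12352473 in V4. The tables were normalized separately. TruSeq reads were 125 bases long and came from another sequencer model than the Pico and V4 reads, which were both 150 bases long. In comparisons with TruSeq the effects of kit, read length and sequencer therefore cannot be told apart, whereas both treatments are present within each kit. The V4 library of saline mouse U9576 stands apart, with a chi-square per degree of freedom of 98.88 and 58.09 against the other saline libraries of V4, where the remaining replicate pairs of V4 lie between 22.57 and 35.92. All 5 hepatocyte markers (Alb, Ttr, Apoa1, Cps1 and Cyp2e1) were detected in every kit, with Alb alone at 570133 to 1062281 counts in the TruSeq libraries. With scaling by library totals the median log2 fold change over every gene tested was -0.17 in TruSeq, -0.12 in Pico and -0.22 in V4. TMM factors move it by 0.16, 0.13 and 0.17, and move the share of calls that are higher from 36.0% to 50.9%, from 38.6% to 52.9% and from 32.7% to 49.7%.

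The stretches upstream of the start sites of 4 members are shown first, because Nlrp12 and Nlrp6 carry most of the counts and Casp4 and Casp1 are neighbouring genes with opposite values. They are RefSeq promoters (GRCm38.p6) matched letter for letter to mm9, the build of the count tables, and cut at the annotated start so that no transcribed base is printed. Nlrp12 is at chr7:3249742-3249991 on the minus strand, Nlrp6 at chr7:148106551-148106800 on the plus strand, Casp1 at chr9:5298267-5298516 and Casp4 at chr9:5308599-5308827, both on the plus strand. Capitals mark matches, on either strand, to a κB motif, a C/EBP motif (TTGCNNAA), a STAT motif (TTCNNNGAA) or an AP-1 motif (TGANTCA).
Nlrp12: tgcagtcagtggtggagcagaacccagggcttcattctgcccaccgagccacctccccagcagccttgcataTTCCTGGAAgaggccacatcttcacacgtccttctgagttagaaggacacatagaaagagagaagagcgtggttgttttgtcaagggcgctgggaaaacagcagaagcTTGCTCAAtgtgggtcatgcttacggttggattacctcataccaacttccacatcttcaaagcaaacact
Nlrp6: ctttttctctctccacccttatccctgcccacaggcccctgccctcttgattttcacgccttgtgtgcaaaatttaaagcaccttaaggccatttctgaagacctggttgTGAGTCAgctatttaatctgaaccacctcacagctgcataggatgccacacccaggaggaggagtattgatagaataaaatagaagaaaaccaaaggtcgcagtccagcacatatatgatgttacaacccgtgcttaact
Casp4: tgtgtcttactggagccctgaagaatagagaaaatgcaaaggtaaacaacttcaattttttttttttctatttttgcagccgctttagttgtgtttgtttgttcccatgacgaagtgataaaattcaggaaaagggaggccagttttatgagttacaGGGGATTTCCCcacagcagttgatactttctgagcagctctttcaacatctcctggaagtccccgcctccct
Casp1: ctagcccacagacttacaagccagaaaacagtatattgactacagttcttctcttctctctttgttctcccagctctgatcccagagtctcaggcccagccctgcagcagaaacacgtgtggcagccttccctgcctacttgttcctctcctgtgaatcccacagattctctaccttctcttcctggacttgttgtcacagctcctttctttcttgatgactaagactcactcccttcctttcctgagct

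The Nlrp12 stretch holds a STAT match, TTCCTGGAA, that begins 178 bases before the start, and a C/EBP match, TTGCTCAA, that begins 70 bases before it. The Nlrp6 stretch holds the AP-1 match TGAGTCA, 140 bases before the start. The Casp4 stretch holds a pair of overlapping κB matches that begin 93 and 92 bases before the RefSeq start, which lies 21 bases after the start in the annotation of the tables. The Casp1 stretch holds none of the 4 motifs. Over all 27025 promoters of 300 bases in the RefSeq table (250 before to 50 after the start), a κB match was found in 4.35%, a C/EBP match in 10.8%, a STAT match in 8.47% and an AP-1 match in 7.93%. All 10 members are in that table, and 4 of them hold a C/EBP match (Nlrp12, Nlrc4, Pycard and Il18bp), while 1 holds each of the others. A match says only that the letters are in the window.

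In mm9 coordinates of the GENCODE annotation, 4 of the 10 genes lie on chromosome 7. Nlrp12 (chr7:3221511-3249741, minus strand) has 4351 exonic bases and Nlrp6 (chr7:148106801-148114439, plus strand) has 3823. Pycard (chr7:135135617-135137381) has 1405 and Il18bp (chr7:109163593-109166669) has 1400, both on the minus strand. Casp1 (chr9:5298517-5307265), Casp4 (chr9:5308828-5336783) and Il18 (chr9:50383378-50389942) are on the plus strand of chromosome 9, with 1497, 3710 and 702 exonic bases, and 1562 bases separate Casp1 from Casp4. The other sensors are Nlrp3 (chr11:59355070-59380458), Nlrc4 (chr17:74825635-74858448) and Aim2 (chr1:175281010-175396171). No exon of a member overlaps an exon of another annotated gene on either strand. Antisense reads from outside the annotation were not examined, and the unstranded V4 counts of these genes can hold them.

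Levels differed widely between the members. Nlrp6 and Nlrp12 together held 83.1% to 95.0% of the counts of the 10 genes in each of the 18 libraries. Per length, in CPM per kilobase of exon (CPM are counts scaled to a library total of 1000000), the saline TruSeq libraries gave 46.0 ± 1.44 for Nlrp6, 10.2 ± 0.883 for Nlrp12, 8.04 ± 0.799 for Il18 and 6.25 ± 0.737 for Il18bp (SD, n = 3 for each). These 4 levels did not overlap each other. Casp1 followed at 1.01 ± 0.204, and Pycard, Aim2 and Casp4 stood at 0.372 ± 0.0879, 0.298 ± 0.0236 and 0.296 ± 0.141, with overlapping ranges. Nlrp3 lay at 0.187 ± 0.069, within the range of Casp4, and Nlrc4 lay lowest at 0.068 ± 0.0423.

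**Figure D1:**
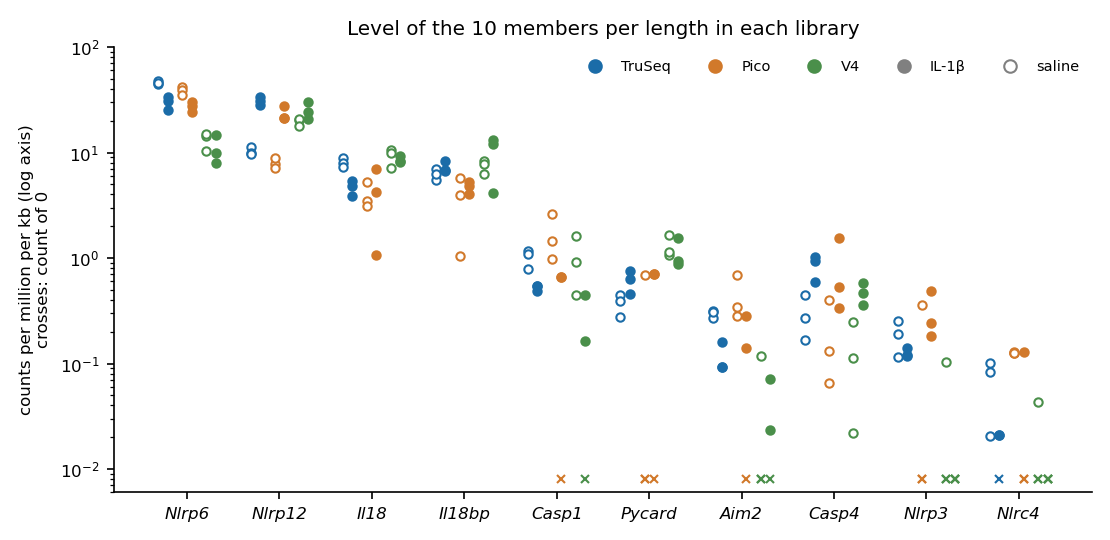
Level of each member in each library, in CPM per kilobase of exon on a log axis, with filled points for IL-1β, open points for saline and crosses at the foot for libraries with a count of 0. Nlrp6, Nlrp12, Il18 and Il18bp lie above 1 in all 18 libraries, and the crosses fall on Casp1, Pycard, Aim2, Nlrp3 and Nlrc4.

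The order changed with the treatment and with the kit. In the IL-1β libraries of TruSeq the level of Nlrp12 was 30.9 ± 2.71 and that of Nlrp6 was 29.9 ± 4.26, with overlapping ranges. In Pico the saline levels were 38.6 ± 3.43 for Nlrp6 and 7.94 ± 0.855 for Nlrp12, and the IL-1β levels were 27.3 ± 2.95 and 23.3 ± 3.88. In V4 the order was the other way round already in the saline libraries, with 19.6 ± 1.66 for Nlrp12 and 13.2 ± 2.47 for Nlrp6, and no overlap. Expressed as the ratio of Nlrp6 to Nlrp12 per length, the saline libraries ranged from 3.96 to 4.83 in TruSeq, from 3.97 to 5.42 in Pico and from 0.585 to 0.722 in V4. With IL-1β the same ratio ranged from 0.899 to 1.1, from 0.875 to 1.43 and from 0.265 to 0.606.

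Nlrp12 had 1668, 1517 and 1817 counts with IL-1β and 619, 546 and 539 with saline in TruSeq. Each IL-1β library was above each saline library. The log2 fold change was 1.60 ± 0.11 (SE), or 2.94 times by the means. Pico gave 372, 369 and 489 counts with IL-1β and 139, 128 and 159 with saline, again with no overlap, and a log2 fold change of 1.55 ± 0.18. V4 gave 1289, 1097 and 1569 counts with IL-1β and 1068, 1088 and 951 with saline. There the groups did not overlap either, but the nearest libraries were 9 counts apart, and the log2 fold change was 0.34 ± 0.18. It ranged from 0.21 (without mouse I9583) to 0.46 (without mouse I9582) when a mouse was left out, and was 0.51 with TMM factors, 0.52 with edgeR and 0.53 with DESeq2, where TMM factors gave 1.75 in TruSeq and 1.68 in Pico.

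For Nlrp12, V4 differed from the other kits more in the saline libraries than in the IL-1β libraries. On the log2 scale of CPM plus 1, V4 read Nlrp12 higher than TruSeq by 0.92 ± 0.12 (SD over 3 mice) with saline and lower by a log2 ratio of -0.31 ± 0.13 with IL-1β. Over the 10266 genes that averaged 20 counts or more in each of the kits, the median was -0.25 and -0.31 in the same libraries, so Nlrp12 in V4 stood at the median with IL-1β, where as many genes had a higher ratio as a lower one, and well above it with saline, where 12.7% did. Between Pico and TruSeq the ratios of Nlrp12 were -0.36 ± 0.21 and -0.41 ± 0.13, against medians of 0.06 and 0.04. The log2 fold change in V4 minus that in TruSeq was -1.25 ± 0.21 (SE), that in Pico minus that in V4 was 1.20 ± 0.27, and that in Pico minus that in TruSeq was -0.05 ± 0.20.

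Nlrp6, best known from the gut epithelium, went the other way. It had 1605, 1198 and 1455 counts with IL-1β and 2154, 2319 and 2259 with saline in TruSeq, with no overlap and a log2 fold change of -0.63 ± 0.11. Pico had 468, 421 and 376 against 654, 610 and 554, also with no overlap, and a log2 fold change of -0.50 ± 0.13. In V4 the counts were 686, 461 and 366 with IL-1β and 654, 690 and 489 with saline. These groups overlap, because the IL-1β library of mouse I9579 is level with the saline libraries, and the log2 fold change was -0.30 ± 0.25. With TMM factors the 3 values were -0.47, -0.37 and -0.13, and the Pico call (adjusted p of at most 0.05) no longer held.

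**Figure D2:**
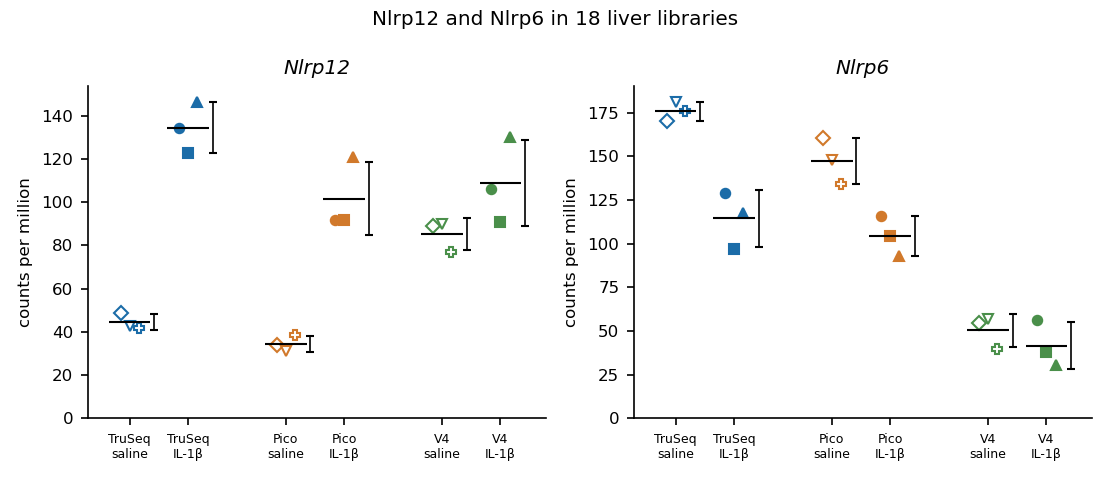
Levels of Nlrp12 and Nlrp6, in CPM, in each of the 18 libraries by kit and treatment, with open symbols for saline, filled symbols for IL-1β, 1 symbol shape per mouse, a line at the mean and a bar of ± 1 SD. The saline libraries of V4 lie above those of TruSeq and Pico for Nlrp12 and below them for Nlrp6.

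The level of Nlrp6 also depended on the kit in both treatments. V4 read it lower than TruSeq by a log2 ratio of -1.80 ± 0.28 with saline and -1.47 ± 0.39 with IL-1β, where the medians of all genes were -0.25 and -0.31. Pico and TruSeq differed less, by -0.25 ± 0.15 and -0.13 ± 0.22. The log2 fold changes of Nlrp6 differed by 0.33 ± 0.28 (V4 minus TruSeq), 0.13 ± 0.17 (Pico minus TruSeq) and -0.20 ± 0.29 (Pico minus V4).

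Both caspases had few counts. Casp1, the protease that matures IL-1β and IL-18, had 10, 10 and 9 counts with IL-1β and 22, 21 and 15 with saline in TruSeq. The groups did not overlap, and the log2 fold change was -0.90 ± 0.31. Pico had 4, 0 and 4 counts against 6, 16 and 9, also with no overlap. V4 had 3, 8 and 0 against 29, 8 and 17, where mice I9582 and U9575 were level at 8. The log2 fold changes in Pico and V4 were -2.19 ± 0.85 and -2.73 ± 1.03, with the same sign as in TruSeq and wide errors. When 20 reads were added to both means the 3 values were -0.41, -0.42 and -0.68.

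Casp4, the sensor of cytosolic lipopolysaccharide, had higher mean counts after IL-1β in all 3 kits. TruSeq had 43, 47 and 27 counts with IL-1β and 21, 8 and 13 with saline, a log2 fold change of 1.55 ± 0.38 and no overlap. V4 had 26, 21 and 16 counts against 5, 11 and 1, a log2 fold change of 2.22 ± 0.85, also with no overlap. Without saline mouse U9576, whose single count was the lowest, the V4 value was 1.40. Pico had 23, 5 and 8 counts against 6, 2 and 1, where the IL-1β library of mouse I9582 fell below the saline library of mouse U9574, and a log2 fold change of 1.86 ± 0.82. With 20 reads added the values were 0.80 in TruSeq, 0.48 in Pico and 0.68 in V4.

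The sensors Aim2, Nlrp3 and Nlrc4 were near the limit of detection. Aim2, which binds double-stranded DNA, had 4, 4 and 7 counts with IL-1β and 12, 14 and 14 with saline in TruSeq, with no overlap and a log2 fold change of -1.33 ± 0.37. In Pico it had 2, 0 and 4 against 4, 5 and 10, and in V4 1, 0 and 3 against 5, 0 and 0. Nlrp3, the most studied inflammasome sensor, had 6, 7 and 6 counts against 13, 6 and 10 in TruSeq and 4, 3 and 8 against 6, 0 and 0 in Pico. In V4 it had no count in any IL-1β library and 5, 0 and 0 with saline. Nlrc4, which works with the Naip proteins as a sensor of flagellin and secretion system proteins, had 1, 0 and 1 counts against 4, 1 and 5 in TruSeq, 0, 0 and 2 against 2, 2 and 2 in Pico, and 2 counts in a single V4 library. A count of 0 allows up to 3 counts, which is 0.233 to 0.243 CPM in a TruSeq library, 0.726 to 0.745 in Pico and 0.243 to 0.25 in V4, and covers counting error only. At these depths no fold is given for Nlrp3 and Nlrc4 in any kit, for Aim2 in Pico and V4, or for Pycard in Pico, where both group means were under 10 counts.

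Pycard, the adaptor, had 11, 13 and 8 counts with IL-1β and 8, 7 and 5 with saline in TruSeq, where a library of each treatment stood at 8. The log2 fold change was 0.68 ± 0.38. V4 had 16, 15 and 26 counts against 28, 18 and 20 and a log2 fold change of -0.22 ± 0.58. Pico had 4, 4 and 0 counts against 4, 0 and 0. The groups overlapped in all 3 kits.

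The cytokine Il18 and its secreted inhibitor Il18bp differed in TruSeq. Il18 had 42, 47 and 34 counts with IL-1β and 79, 71 and 66 with saline, with no overlap and a log2 fold change of -0.77 ± 0.19. The V4 counts of Il18 were 79, 69 and 70 against 90, 84 and 62, with a log2 fold change of -0.09 ± 0.35, and the Pico counts were 20, 3 and 12 against 15, 10 and 9, with -0.23 ± 0.67. In V4 the sign turned with TMM factors (0.09), and in Pico it turned without the IL-1β mouse I9582 (0.50). For Il18 the log2 fold change in V4 minus that in TruSeq was 0.68 ± 0.39.

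Il18bp had 118, 143 and 116 counts with IL-1β and 124, 99 and 112 with saline in TruSeq, and a log2 fold change of 0.21 ± 0.16. The V4 libraries spread most, with 70, 204 and 220 counts against 140, 107 and 136. Mouse I9579 lay below all 3 saline libraries there and the other IL-1β mice lay above them, so the log2 fold change of 0.21 ± 0.43 became -0.03 without mouse I9582 and -0.08 without mouse I9583. Pico had 23, 27 and 30 against 33, 6 and 23, and the log2 fold change of 0.68 ± 0.52 became -0.03 without saline mouse U9575. Per length, the ratio of Il18bp to Il18 in TruSeq was 1.41 to 1.71 with IL-1β and 0.699 to 0.851 with saline. In Pico the ratio was 0.577 to 4.51 against 0.301 to 1.28, and in V4 it was 0.444 to 1.58 against 0.639 to 1.1, so the groups overlapped.

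**Figure D3:**
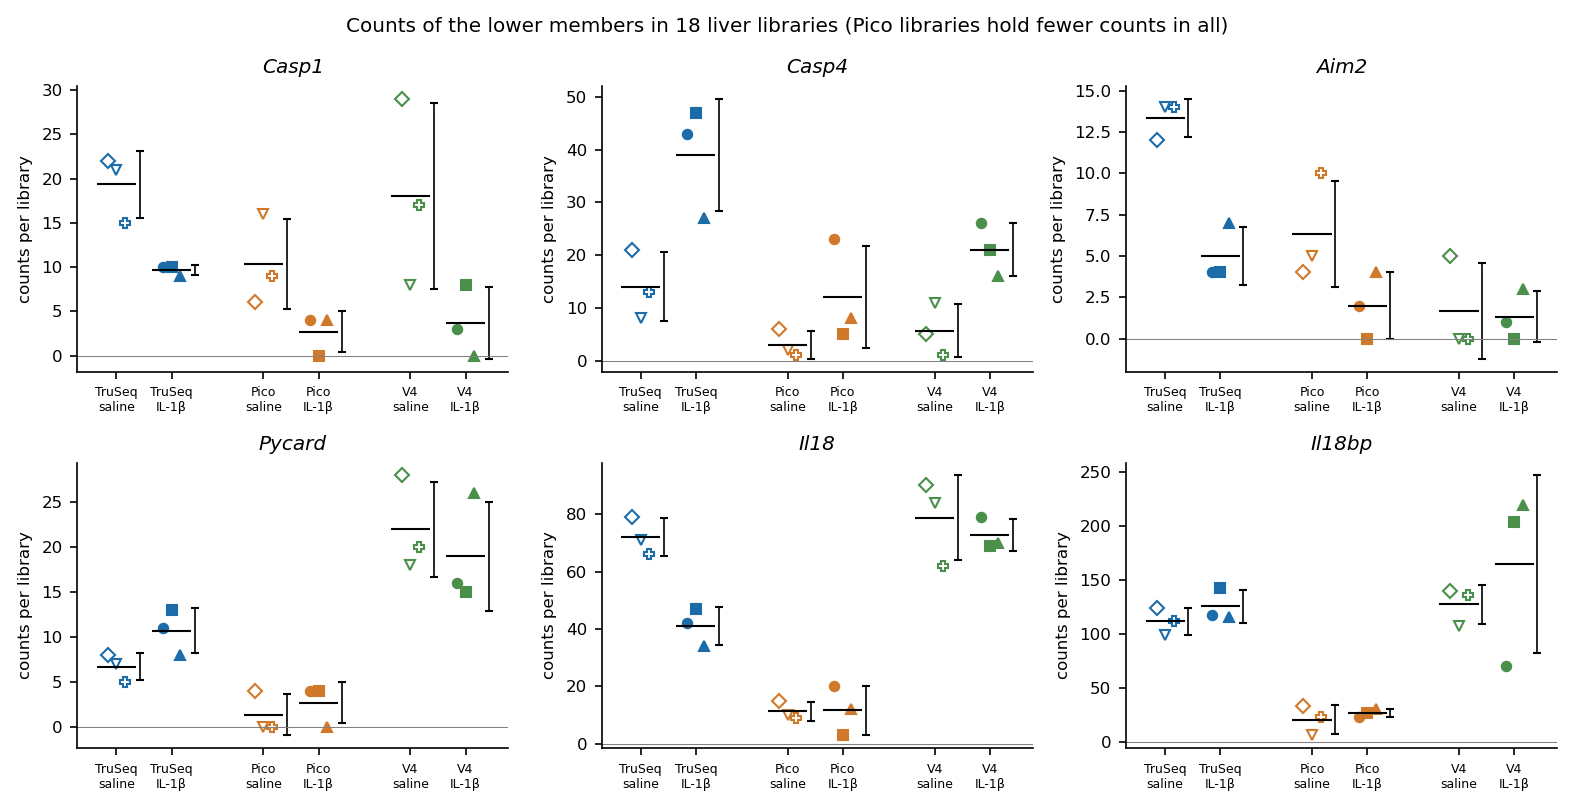
Counts per library of Casp1, Casp4, Aim2, Pycard, Il18 and Il18bp by kit and treatment, with open symbols for saline, filled symbols for IL-1β, 1 symbol shape per mouse, a line at the mean and a bar of ± 1 SD. In TruSeq the treatments are separate for Casp1, Casp4, Aim2 and Il18. Among these 6 genes they are separate for Casp1 alone in Pico and for Casp4 alone in V4.

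Counted over the 10 genes, limma-voom with an adjusted p of at most 0.05 called 2 higher (Nlrp12 and Casp4) and 4 lower (Nlrp6, Il18, Aim2 and Casp1) in TruSeq, where 12.3% of all 19424 genes were called higher and 21.8% lower. In Pico it called 1 higher (Nlrp12) and 1 lower (Nlrp6), where 6.78% of 18108 genes were higher and 10.8% lower. In V4 limma-voom called 0 of the 10, where 3.6% of 18051 genes were higher and 7.41% lower. At an unadjusted p under 0.05 it gave 2 of the 10 in V4 (Casp1 and Casp4), and Nlrp12 as well with TMM factors. At the same unadjusted level edgeR gave Nlrp12 alone and DESeq2 gave Casp4 and Nlrp12. The share of all V4 genes at that level is not given here, so these unadjusted numbers cannot be set beside the 3.6% and 7.41%. By adjusted p, edgeR and DESeq2 also called 0. Since the genes were chosen with this comparison in view, nothing is read from these counts. By overlap alone, 2 members were higher and 4 lower in every IL-1β library of TruSeq than in every saline library (14.5% and 29.3% of all genes), 1 and 2 in Pico (11.0% and 19.2%), and 2 and 0 in V4 (8.71% and 18.2%).

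**Figure D4:**
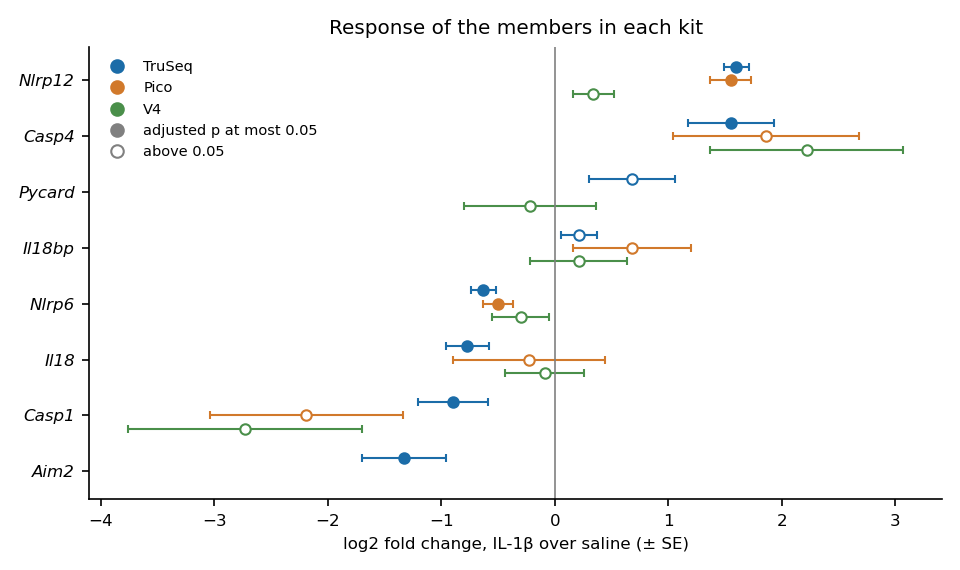
Log2 fold change of IL-1β over saline with its SE for the 8 members that had a group mean of at least 10 counts in at least 1 kit, by kit, filled where the adjusted p of limma-voom over all genes of the kit was at most 0.05. Nlrp12 shows TruSeq and Pico together at 1.60 and 1.55 and V4 apart at 0.34, and the errors of Casp1 and Casp4 are wide in Pico and V4.

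The Casp1 call in TruSeq was lost with TMM factors, with edgeR, with DESeq2 and without each mouse in turn other than U9576. The Casp4 call in TruSeq was lost without saline mouse U9575 or U9576, with log2 fold changes of 1.22 and 1.55. Aim2 in TruSeq lost its call with DESeq2 and without IL-1β mouse I9579 or I9582, and Il18 lost it with DESeq2. The Nlrp6 call in Pico was also lost without mouse I9582, I9583 or U9574. A pair of members at a few counts gained a call when a mouse was left out, Nlrc4 (lower in TruSeq, without U9575) and Nlrp3 (higher in Pico, without U9574). When the TruSeq libraries were thinned to the smallest Pico total of 4024632 counts, Nlrp12 and Nlrp6 kept their calls and Casp4, Casp1, Aim2 and Il18 lost theirs (median of 5 draws).

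Whether the response differed between kits was fitted over all genes with an interaction of kit and treatment. Limma-voom called 0 of 17207 genes (0.0%) for Pico with TruSeq, 0 of 17147 for V4 with TruSeq and 0 of 16395 for Pico with V4, with 945, 1090 and 900 genes at an unadjusted p under 0.05 (5.49%, 6.36% and 5.49%). edgeR called 0 in each pair, and DESeq2 called 4, 62 and 14 (0.0232%, 0.362% and 0.0854%). The DESeq2 calls included Nlrp12 in the pair of V4 with TruSeq and in that of Pico with V4. Limma-voom called Nlrp12 in the former pair when mouse U9576 was left out, in a fit that called 59 of 17133 genes. The members were selected with the disagreement between kits in view, so these calls of Nlrp12 are a description only. No other member was called in any of these fits.

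Markers of several cell types changed with the treatment in the same libraries. In whole liver, fewer cells of a type and less RNA per cell cannot be told apart. Among all genes, 12.3% were called higher and 21.8% lower in TruSeq, 6.78% and 10.8% in Pico and 3.6% and 7.41% in V4. For the 8 Kupffer cell and macrophage markers the summed level in TruSeq was 67.3 to 97.7 CPM with IL-1β and 136.0 to 229.0 with saline, and 5 of them were called lower (Cd5l, Clec4f, Csf1r, Emr1 and Vsig4) and 1 higher (Marco). The sums were 103.0 to 140.0 against 187.0 to 246.0 in Pico and 53.0 to 83.2 against 102.0 to 200.0 in V4, with 4 and 2 called lower. These sums are lower in the same TruSeq libraries in which Casp1 and Aim2 had fewer counts, and their part in those values was not tested. For the 11 neutrophil markers listed in at least 1 table the sum was 48.4 to 94.7 with IL-1β and 3.36 to 6.4 with saline in TruSeq, 43.2 to 60.4 against 0.971 to 5.14 in Pico and 43.9 to 87.6 against 2.15 to 5.41 in V4, with 8, 8 and 7 called higher and 0 lower. The markers tested numbered 11 in TruSeq, 8 in Pico and 10 in V4. Ly6g was listed in the TruSeq table alone, and Camp and Elane were not in the Pico table. In V4 the log2 fold change was 0.34 ± 0.18 for Nlrp12 and 2.22 ± 0.85 for Casp4, the latter from 1 to 26 counts per library. The part of neutrophils in the Nlrp12 and Casp4 counts was not tested in any kit.

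For Nlrp6, the 4 bile duct and gut epithelium markers (Krt19, Epcam, Vil1 and Fabp2) summed to 28.2 to 46.9 CPM with IL-1β and 46.4 to 65.2 with saline in TruSeq, with Epcam called higher and none called lower. The sums were 17.1 to 35.5 against 24.7 to 33.9 in Pico and 37.4 to 76.5 against 58.4 to 86.5 in V4, so the treatments overlapped in all 3 kits, and Epcam was called higher in Pico as well. These sums mostly follow Fabp2. It had 560, 806 and 574 counts in the saline libraries of TruSeq, where Krt19, Epcam and Vil1 had 1 to 16. In TruSeq the log2 fold change was -0.48 ± 0.21 for Fabp2, which was not called, and 1.22 ± 0.29 for Epcam. The sums are therefore no measure of an epithelial cell type. Hepatocyte markers were called lower in 3, 5 and 3 of 5 cases in TruSeq, Pico and V4, sinusoidal endothelium markers in 4, 3 and 2 of 4, and stellate cell markers in 2, 2 and 1 of 3. Of the 7 lymphocyte and NK cell markers, 2 were called lower in TruSeq and 1 higher in Pico. Their part in the Nlrp6 values was not tested.

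The other genes of the pathway were taken from 5 lists with 81 gene entries, chosen, like the members, with earlier results of these libraries known. Of these, 19 were called higher and 18 lower of 80 tested in TruSeq, 17 and 7 of 80 in Pico and 9 and 5 of 76 in V4. Over all genes, 12.3% were called higher and 21.8% lower in TruSeq, 6.78% and 10.8% in Pico and 3.6% and 7.41% in V4. The counts of each list below stand beside these same shares. The median log2 fold change over the lists was 0.09, 0.30 and 0.10, beside -0.17, -0.12 and -0.22 over all genes. Genes named below as rising or falling in all 3 kits were picked because they were called in each kit. Their adjusted p is therefore at most 0.05 by selection and is given as a description.

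The remaining NLR family was mostly low. Of its 16 entries, 15 were tested in TruSeq, 16 in Pico and 12 in V4. Limma-voom called 0 higher in any kit, and 4 lower in TruSeq, 1 in Pico and 0 in V4. At an unadjusted p under 0.05 it gave 0, 2 and 1 higher and 6, 4 and 4 lower. No share of all genes at that unadjusted level is set beside these numbers, so nothing is read from them. By adjusted p, edgeR and DESeq2 each called 1 higher in Pico and 1 in V4, Nod1 in each case. The median log2 fold change of the list was -0.52, 0.09 and -1.44, from genes that mostly had a few counts. Nlrx1, a mitochondrial member of the family, had 49, 54 and 62 counts with IL-1β and 129, 138 and 105 with saline in TruSeq, and its log2 fold change was -1.12 ± 0.18 (adjusted p = 0.00121, limma-voom). In Pico it was -1.51 ± 0.44 (adjusted p = 0.0249), and in V4 -1.25 ± 0.42 (adjusted p = 0.0849). Naip5 and Naip6, which pass flagellin signals to Nlrc4, had log2 fold changes of -1.12 ± 0.25 and -1.31 ± 0.45 in TruSeq (adjusted p = 0.00655 and 0.0484), and these are uncertain because the Naip genes are close copies that can share reads. Nlrc5 had 508, 392 and 334 counts against 417, 363 and 408 in TruSeq, a log2 fold change of 0.08 ± 0.15. Nlrx1, Naip5, Naip6, Nod1 and Nlrc5 were singled out after their values were seen.

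Of the 13 other cytosolic sensors, 2 were called higher and 3 lower in TruSeq, 2 and 0 in Pico and 1 and 0 in V4, with list medians of 0.15, 0.15 and 0.58. Zbp1, a sensor of Z-form nucleic acid, rose in all 3 kits. Its TruSeq counts were 346, 307 and 230 with IL-1β and 155, 84 and 97 with saline, and its log2 fold change was 1.46 ± 0.23 in TruSeq, 1.34 ± 0.27 in Pico and 1.22 ± 0.31 in V4 (adjusted p = 0.00112, 0.00209 and 0.0274).

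Of the 12 other caspases, pore proteins and cell death kinases, 3 were called higher and 4 lower in TruSeq, 3 and 1 in Pico and 1 and 1 in V4, with list medians of -0.29, -0.04 and -0.05. Gsdmd encodes gasdermin D, the pore protein cut by caspases 1 and 11. It had 700, 739 and 697 counts with IL-1β and 293, 284 and 305 with saline in TruSeq, with no overlap. Gsdmd rose by a log2 fold change of 1.32 ± 0.10 in TruSeq, 1.19 ± 0.25 in Pico and 1.08 ± 0.18 in V4 (adjusted p = 1.62e-05, 0.00316 and 0.00419). Casp9, the initiator caspase of the mitochondrial death pathway, fell, with log2 fold changes of -1.69 ± 0.15, -1.08 ± 0.28 and -2.64 ± 0.56 (adjusted p = 4.29e-05, 0.0115 and 0.013). An exon of Casp9 shares 94 bases with the antisense gene Cela2a, and the unstranded V4 counts cannot tell them apart.

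Of the 11 IL-1 family ligands and receptors, 5 were called higher and 3 lower in TruSeq, 4 and 1 in Pico and 3 and 1 in V4, with list medians of 1.24, 1.64 and 1.37. The receptor Il1r1 had 11305, 9485 and 8840 counts with IL-1β and 1451, 738 and 802 with saline in TruSeq, and log2 fold changes of 3.41 ± 0.22, 3.65 ± 0.17 and 2.91 ± 0.20 in TruSeq, Pico and V4 (adjusted p = 7.77e-06, 2.2e-10 and 1.44e-05). The receptor antagonist Il1rn rose by 6.93 ± 0.58, 6.65 ± 0.71 and 7.58 ± 0.93 (adjusted p = 2.9e-05, 5.54e-06 and 0.000658). The decoy receptor Il1r2 had 29, 77 and 44 counts with IL-1β in TruSeq and 0 in each saline library, and was called in all 3 kits. Against a floor of 3 counts per saline library, Il1r2 was at least 16.7-fold higher in TruSeq and at least 4.56-fold higher in Pico, where its saline libraries were also at 0. The accessory chain Il1rap fell by a log2 fold change of -0.66 ± 0.10, -0.50 ± 0.13 and -0.65 ± 0.18 (adjusted p = 0.000675, 0.0119 and 0.0375). Il1b itself, the other substrate of caspase 1, had 16, 20 and 16 counts with IL-1β and 18, 17 and 12 with saline in TruSeq, a log2 fold change of 0.20 ± 0.29 (adjusted p = 0.625), and it was named for its place in the pathway after its values were seen.

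Of the 29 priming genes and regulators, 9 were called higher and 4 lower in TruSeq, 8 and 4 in Pico and 4 and 3 in V4, with list medians of 0.49, 0.46 and 0.15. Tlr2, a receptor for bacterial lipoproteins, rose by 5.66 ± 0.46, 5.27 ± 0.64 and 6.18 ± 0.57 on the log2 scale (adjusted p = 2.65e-05, 2.17e-05 and 0.000106). Gbp2, a guanylate binding protein that acts on bacterial membranes upstream of caspase 11, rose by 3.78 ± 0.32, 3.11 ± 0.35 and 4.61 ± 0.49 (adjusted p = 3.41e-05, 9.88e-06 and 0.000259). Myd88, the adaptor of the IL-1 and Toll-like receptors, rose by 1.86 ± 0.13, 2.21 ± 0.24 and 2.33 ± 0.19 (adjusted p = 9.95e-06, 8.49e-06 and 4.17e-05). In the other direction, Txnip, a thioredoxin inhibitor that has been linked to Nlrp3, had log2 fold changes of -1.63 ± 0.13, -1.43 ± 0.23 and -1.64 ± 0.38 (adjusted p = 2.59e-05, 0.000374 and 0.0187). The transcription factor Irf1 had -1.56 ± 0.20, -1.61 ± 0.26 and -1.43 ± 0.41 (adjusted p = 0.000307, 0.000376 and 0.0467). The caspase inhibitor Xiap had -1.04 ± 0.13, -0.78 ± 0.13 and -1.33 ± 0.28 (adjusted p = 0.000322, 0.000563 and 0.0123). Exons of Il1rap, Myd88, Txnip and Irf1 also overlap an antisense gene, so the V4 counts of these 4 genes can hold antisense reads.

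**Figure D5:**
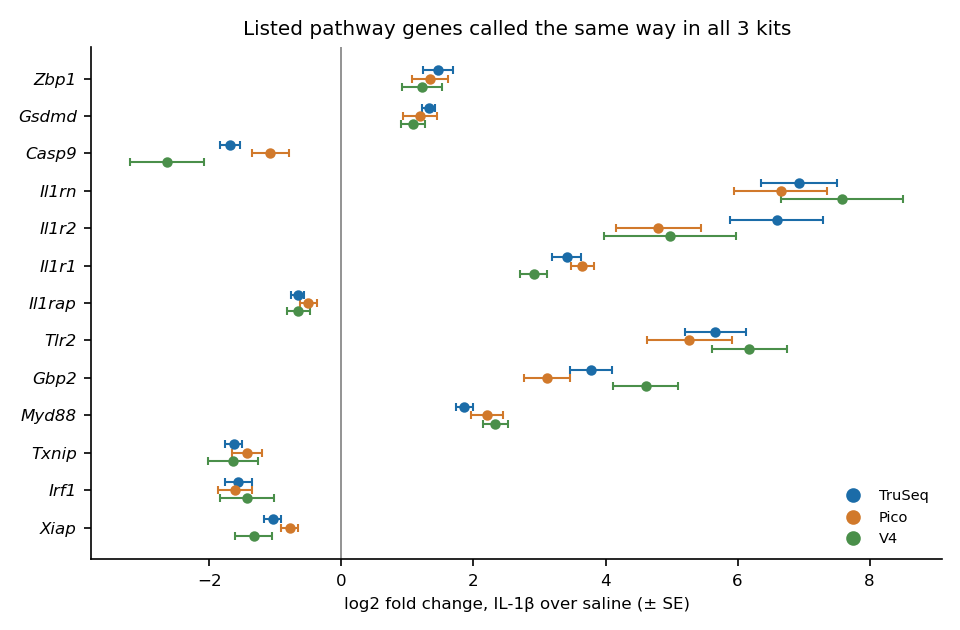
Log2 fold change of IL-1β over saline with its SE, by kit, for the 13 listed pathway genes named by the rule of up to 3 rises and up to 3 falls per list among genes called in the same direction in all 3 kits. Il1rn, Il1r2 and Tlr2 lie highest, and Casp9, Il1rap, Txnip, Irf1 and Xiap lie below 0 in each kit. The fitted value of Il1r2 depends on the prior count, since its saline libraries are at or near 0.

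Nlrp6, Nlrp12 and Il18bp averaged 20 counts or more in each kit, and their patterns over the 18 libraries were set beside those of 8960 genes, with log2 values centred within each kit. The genes most like Nlrp12 were Atp11a, Bsdc1 and Gm5828, with Pearson's r of 0.961, 0.958 and 0.953. Those most like Nlrp6 were F8, Tbc1d2b and Phka2, at 0.913, 0.891 and 0.886. Those most like Il18bp were Tmem186, 2210018M11Rik and Leprot, at 0.878, 0.84 and 0.826. The 18 points share the 6 mice and the treatment, so these values describe likeness only.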

How the data were processed

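RNA-Seq counts of 18 mouse liver libraries were used, from 6 mice and 3 kits. Per the labels and the study's methods, the authors aligned reads with GSNAP to mm9, resampled them to an equal depth within each kit and deposited counts of whole reads per gene, in the sense orientation for TruSeq and Pico and on both strands for V4. The Pico libraries had been prepared more than once, and the labels do not state the run. Members were matched by symbol. Each kit was fitted with limma-voom (limma 3.58.1, R 4.3.3) on library totals, keeping genes with any count in the kit, with Benjamini-Hochberg adjustment over all genes of the kit, and calls were made at an adjusted p of at most 0.05. The difference in response was fitted on the 12 libraries of each pair of kits as an interaction, with no term for the mouse. The SEs given for these differences therefore ignore the pairing. With the mouse as a block, the SE for Nlrp12 (V4 minus TruSeq) was 0.14 in place of 0.21. Fold changes of members are given where a group mean reached 10 counts. Alternatives were TMM factors, edgeR 4.0.16 (quasi-likelihood), DESeq2 1.42.0, a filter of 10 counts in 3 libraries, no filter, thresholds of 0.1 and 0.01, thinning to 4024632 counts (median of 5 draws), 20 added reads, leaving out each mouse, and the mouse as a block. The fits were tested on simulated data.

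Aliquots of the same RNA went into every kit, so libraries pair by mouse. As a check, deviations from the group means were correlated over well expressed genes. For the same mouse they gave 0.184 to 0.428 (Pico with TruSeq), 0.175 to 0.435 (V4 with TruSeq) and 0.079 to 0.234 (Pico with V4). Different mice gave -0.346 to -0.031. Deviations cancel within a group, so positive values for the same mouse force those for different mice down, and the latter are no separate check.

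The named genes are the 10 members, up to 3 rises and 3 falls per pathway list among genes called in the same direction in all 3 kits, ranked by the TruSeq value, and the 3 genes most like each member with a mean of at least 20 counts. The members and the lists were chosen with earlier results of these data known. Levels per length used the exon union of the GENCODE annotation of mm9. Trim31 and Mpo, of the fixed lists, were in none of the tables. Intronic reads and antisense reads were not used here.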

Additional observations from a re-analysis of the deposited data

How the results depend on the processing

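Nlrp3 and Nlrc4 in every kit, Aim2 in Pico and V4 and Pycard in Pico had too few counts for a fold change. Of 2 called higher in TruSeq, 1 was called at a threshold of 0.01 and 1 after thinning, and 1 to 2 were called when a mouse was left out. Of 4 called lower in TruSeq, DESeq2 called 1, the threshold of 0.01 gave 1, thinning gave 1, and leaving out a mouse gave 2 to 4, where the 4 without U9575 hold Nlrc4 in place of Casp1. The 1 called lower in Pico became 0 with TMM factors, edgeR, DESeq2 and the threshold of 0.01, 2 at 0.1 (with Casp1), and 0 to 1 without a mouse, and the 1 called higher became 1 to 2 (with Nlrp3). In V4 no member was called by limma-voom under any alternative.

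For the pathway lists, calls lower in TruSeq went from 18 to 11 at 0.01, and those in Pico from 7 to 3, or 3 to 7 without a mouse. Those in V4 went from 5 to 3 with TMM factors, 9 at 0.1, 0 at 0.01 and 0 to 4 without a mouse. For the difference in response, the replicate block with the mouse gave 1 gene between Pico and TruSeq, where the main fit gave 0, and 0 in the other pairs. The 1 gene is no member or listed gene, so no call of a member or listed gene changed. DESeq2 gave 4, 62 and 14 genes, of which 0, 2 (Nlrp12 and Card6) and 1 (Nlrp12) are members or listed. Leaving out a mouse gave 0 to 59 genes between V4 and TruSeq, with 0 to 1 member or listed, and 0 to 39 between Pico and V4, both highest without saline mouse U9576. The causes were not tested.

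Of 269 recomputed log2 fold changes of members, 226 kept their sign and side of the threshold or stayed within 1 SE, 24 lost a call, 8 moved by more than 1 SE with 20 added reads and 11 turned. None of the 11 was called. Il18 in Pico turned to 0.20 with edgeR and DESeq2 and 0.02 with 20 added reads, and ranged from -0.77 to 0.50 when a mouse was left out. Il18 in V4 turned to 0.09 with TMM factors, 0.05 with edgeR and 0.06 with DESeq2, and ranged from -0.26 to 0.02 without a mouse. Il18bp ranged from -0.03 to 1.16 in Pico and from -0.08 to 0.75 in V4 without a mouse, and it turned in Pico without saline mouse U9575 and in V4 without mouse I9582 or I9583.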
